A study of Mus musculus with 6 samples.

Results

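The genes described here are 44 components of TGF-beta, BMP, activin and WNT signalling in 3T3-L1 adipocytes, taken as a list of gene symbols by pathway role and not by a measured value. The list was chosen with earlier results of these data known. All 44 had a row among the 24421 gene symbols of every library, and 38 of them had enough reads to be among the 12766 genes tested. 3T3-L1 is a mouse fibroblast line of clonal origin that differentiates into adipocytes in culture, labelled here with the strain C57BL/6. The cells of both groups received the same cocktail from 2 days after confluence, with DMEM, CS, insulin (870 nM), TZD (5 µM), a class of PPARγ agonists, Dex (1 µM) and IBMX (500 µM), the last 2 only until day 3. On day 7 they were infected with 100 pfu/cell of adenovirus, and RNA was taken 3 days later. The control group received LacZ adenovirus (AdLacZ, n = 3) and the other group Lmo3 adenovirus (Ad*Lmo3*, n = 3), each library coming from a separate infection. No uninfected cells were sequenced among these libraries, so every value describes adipocytes that carry a virus, and the viral *Lmo3* is a codon-optimized mouse sequence. Levels are given as CPM, the reads of a gene scaled to 1e+06 reads on genes after TMM normalization,, and as CPM per kb of annotated exon where genes are compared with each other.

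Ligands of the TGF-beta superfamily bind pairs of type I and type II serine/threonine kinase receptors, which phosphorylate SMAD proteins. SMAD2 and SMAD3 carry the signal of TGF-beta and activin, SMAD1 and SMAD5 that of BMPs, SMAD4 joins both kinds as the common partner, and SMAD6 and SMAD7 are inhibitors. Canonical WNT ligands bind Frizzled receptors together with LRP5 or LRP6, which spares β-catenin from the destruction complex built on axin and lets it act with TCF factors such as TCF7L2. In adipose biology TGF-beta and canonical WNT signals are known for holding preadipocytes back from differentiation, whereas BMPs can favour commitment to the adipocyte lineage.

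The libraries held 28035639 to 38332335 reads on genes, so that 3 counts, taken as the smallest detectable number, corresponded to 0.0768 to 0.111 CPM (counting error only). *Lmo3* had a count of 0 in every library, and the group labels could not be checked through that gene. The 12 adipocyte markers summed to 20700 to 22900 CPM in AdLacZ and 28100 to 34000 CPM in Ad*Lmo3* libraries, and 9 of the 12 were significantly higher in Ad*Lmo3* (edgeR). The 12 preadipocyte and fibroblast markers summed to 17500 to 22300 and 16900 to 25700 CPM, with 0 called. Most of these sums came from *Col3a1* and *Col1a1*. The 6 macrophage markers summed to 14.4 to 16.1 CPM in AdLacZ and 11.6 to 14.6 CPM in Ad*Lmo3*, most of it from *Cd14* and *Cd68*, with *Adgre1* and *Ptprc* at 0 to 2 counts in each library and 0 of the 3 tested called. Interferon response genes spread widely among Ad*Lmo3* libraries, where 8 of them summed to 609, 1390 and 3290 CPM in replicates 1, 2 and 3 (1180 to 1580 CPM in AdLacZ), with 0 called.

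The question asked of the 44 genes was whether their mRNA differed between the 2 viruses. At an adjusted p-value under 0.05, 0 of the 38 tested genes were called by edgeR's quasi-likelihood test, against 547 of all 12766 tested genes (4.28%). At an unadjusted p under 0.05 there were 8 of 38 (21.1%), where 2635 of all genes (20.6%) reached it, so the share was close to the background. By the same adjusted threshold limma voom called 0 and DESeq2 called 2 (5.26%), *Inhbb* and *Lrp5*, where DESeq2 called 1110 of all tested genes (8.69%). Of the 38, 26 were higher and 12 lower in Ad*Lmo3*, with a median log2 fold change of 0.09 (0.00 over all tested genes) and a range from -0.33 to 0.52. Scaled on library totals without TMM, the split was 21 higher and 17 lower, and the median over all tested genes was -0.07. That separate fit called 767 of all tested genes (6.01%), 266 higher and 501 lower. The 547 calls with TMM were 346 higher and 201 lower. In these bulk libraries a lower value cannot be told apart between fewer cells of a type and less RNA per cell.

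The intervals show which sizes of change the 3 against 3 design leaves possible. For 35 of the 38 genes the 95% interval of the log2 fold change lay within 1 in either direction, that is within a 2-fold change, and for 21 of 38 (55.3%, against 65.4% of all tested genes) it lay within 0.5, a 1.41-fold change. The 3 genes whose intervals passed a 2-fold change, *Wnt5b*, *Wnt6* and *Ctgf*, were all at 3.86 CPM or lower in every library.

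**Figure D1:**
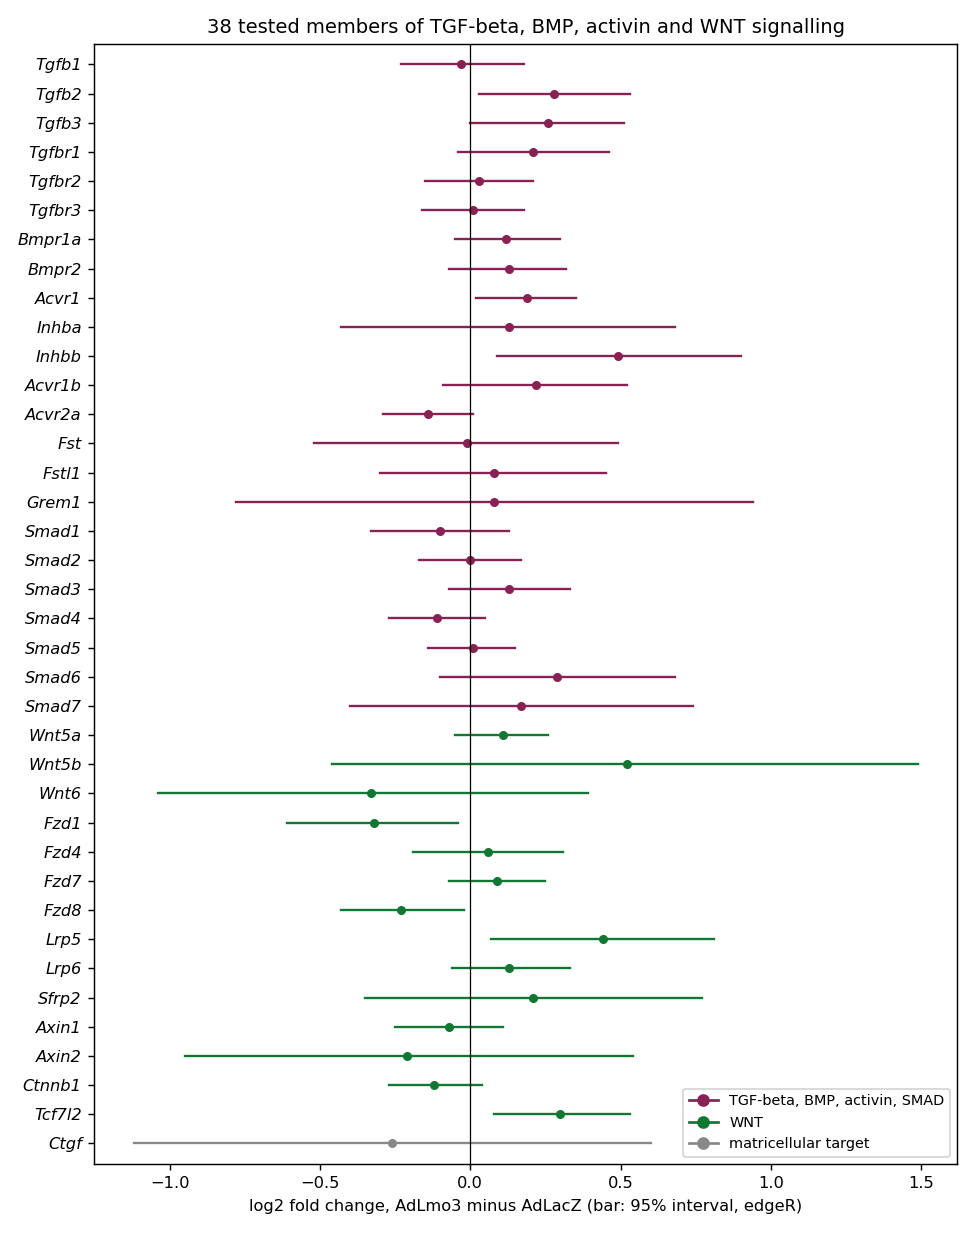
Log2 fold change (horizontal axis, Ad*Lmo3* minus AdLacZ) of the 38 tested genes, 1 per row, with the 95% interval from edgeR as a bar (n = 3 libraries per group). The estimates lie between -0.33 and 0.52, and the bars are longest for low genes such as *Wnt5b* and *Ctgf*.

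The 44 genes covered a wide range of levels. Per kb of exon, 18 of them had a mean over the 6 libraries of at least 10 CPM and 11 were below 1 CPM. The highest was *Fstl1*, a secreted follistatin-like glycoprotein, at 85.0 to 131 CPM per kb, and next came *Ctnnb1*, which encodes β-catenin, at 76.7 to 87.2. These 2 ranges overlapped, and both lay above *Fzd1* at 30.0 to 50.6 CPM per kb. The exon lengths come from an annotation that may differ from the one used for counting, which limits the order of close neighbours.

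**Figure D2:**
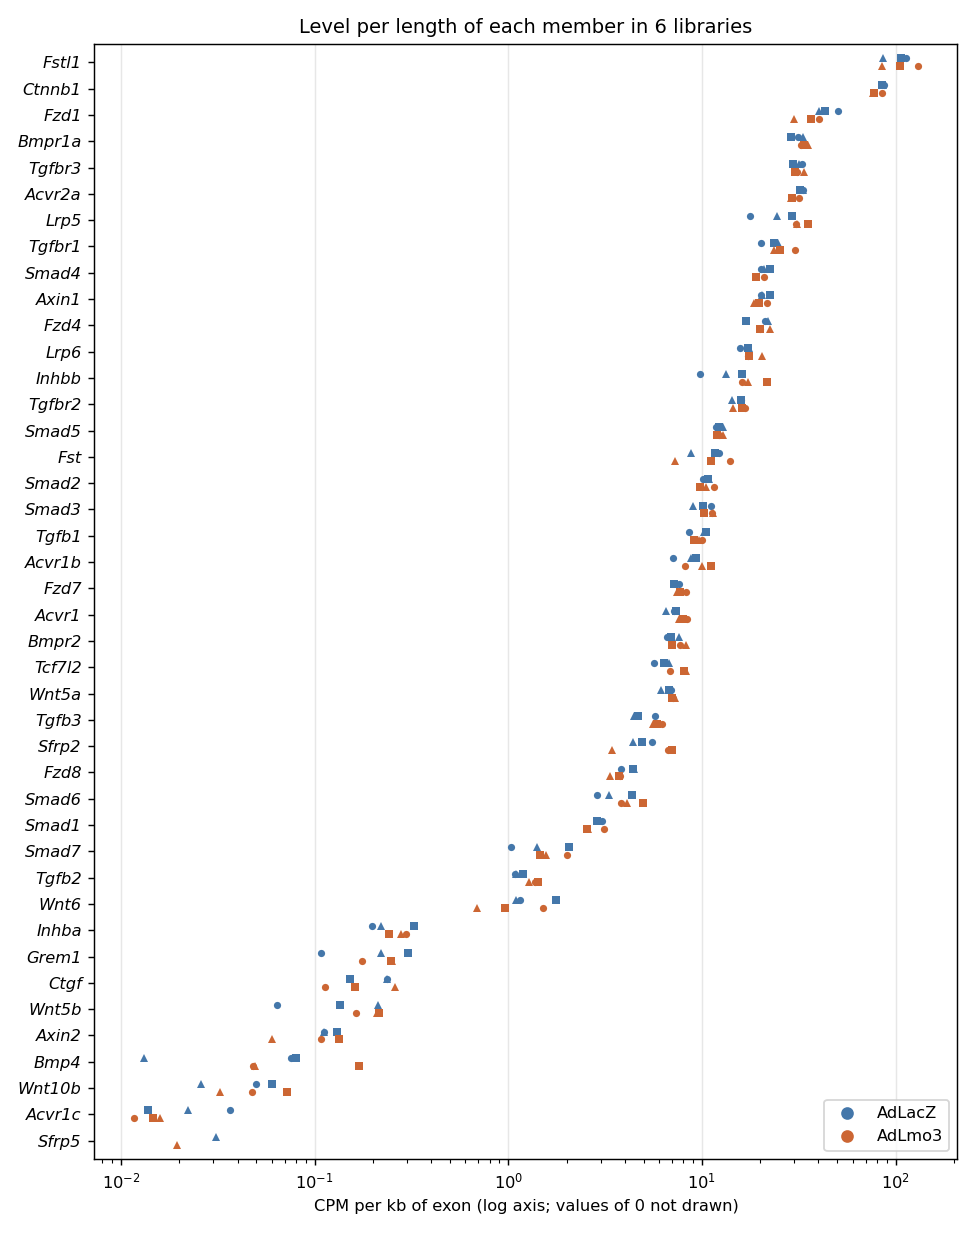
Level of each gene in each of the 6 libraries, in CPM per kb of exon on a log axis, ordered by the mean and coloured by virus, with circles, squares and triangles for replicates 1, 2 and 3. *Bmp2* and *Sfrp1*, at 0 in all libraries, are not drawn; levels run from *Fstl1* at the top to *Sfrp5* at the bottom.

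The 6 genes too low to be tested included both BMP ligands of the list. *Bmp2* had 0 counts in all 6 libraries, as had the WNT antagonist *Sfrp1*, which allows up to 3 counts, or 0.111 CPM in the shallowest library. *Bmp4*, a BMP linked to adipocyte commitment, had 6, 7 and 1 counts in AdLacZ and 4, 14 and 3 in Ad*Lmo3* replicates 1, 2 and 3. The WNT antagonist *Sfrp5* had 0, 0 and 2 counts against 0, 0 and 1. *Wnt10b*, a canonical WNT ligand known to restrain adipogenesis, had 6, 8 and 3 counts in AdLacZ and 6, 9 and 3 in Ad*Lmo3*. *Acvr1c*, which encodes the type I receptor ALK7 known from mature adipocytes, had 12, 5 and 7 counts in AdLacZ and 4, 5 and 4 in Ad*Lmo3* libraries. It thus stayed at or below 0.337 CPM although the adipocyte markers were abundant in the same libraries. No difference between the viruses could be detected for these 6 genes at this depth.

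Among the TGF-beta ligands, *Tgfb1* was the most abundant per length (8.55 to 10.5 CPM per kb), followed by *Tgfb3* (4.47 to 6.25) and *Tgfb2* (1.08 to 1.43), and these ranges did not overlap. *Tgfb1* had 43.1, 52.7 and 51.7 CPM in AdLacZ and 50.3, 45.7 and 48.8 CPM in Ad*Lmo3* replicates 1, 2 and 3. The groups overlapped, and its log2 fold change was -0.03 (95% interval -0.23 to 0.18, adjusted p = 0.906, edgeR). *Tgfb2* had 6.27, 6.88 and 6.40 CPM in AdLacZ and 7.96, 8.28 and 7.44 CPM in Ad*Lmo3* libraries. All Ad*Lmo3* values lay above all AdLacZ values, with and without TMM, yet the difference of 0.28 on the log2 scale (standard error 0.109) did not pass the adjustment (adjusted p = 0.197). *Tgfb3* differed by 0.26 with overlapping groups (adjusted p = 0.240); 12.4% of its exon length is shared with genes on the opposite strand.

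The TGF-beta receptors showed intervals that were mostly narrow. *Tgfbr3*, the co-receptor betaglycan that presents ligand, had 215, 194 and 208 CPM in AdLacZ and 202, 197 and 221 CPM in Ad*Lmo3* libraries, a log2 fold change of 0.01 (95% interval -0.16 to 0.18, adjusted p = 0.970). The values of the groups were interleaved. The type II receptor *Tgfbr2* (log2 fold change 0.03, 95% interval -0.15 to 0.21) and the type I receptor *Tgfbr1* (0.21, -0.04 to 0.46) had overlapping groups as well, with adjusted p-values of 0.886 and 0.336. Per length, *Tgfbr3* (29.6 to 33.8 CPM per kb) and *Tgfbr1* (20.3 to 30.1) overlapped slightly, and *Tgfbr2* was lower (14.3 to 16.6).

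The BMP receptors were present although the 2 BMP ligands of the list were near 0. *Bmpr1a*, the main type I receptor of the list, had 199, 182 and 211 CPM in AdLacZ and 206, 215 and 225 CPM in Ad*Lmo3* libraries (log2 fold change 0.12, 95% interval -0.05 to 0.30, adjusted p = 0.415). The upper AdLacZ value fell within the Ad*Lmo3* range. Per length it stood at 28.7 to 35.4 CPM per kb, well above *Acvr1* (6.53 to 8.39) and the type II receptor *Bmpr2* (6.61 to 8.30), which did not differ from each other beyond their spread. *Acvr1*, which encodes the type I receptor ALK2, had 34.8, 35.5 and 31.5 CPM in AdLacZ and 40.5, 38.4 and 36.8 CPM in Ad*Lmo3* libraries. These groups stood apart, but only with TMM scaling, and the log2 fold change of 0.19 (standard error 0.0729) had an adjusted p of 0.196. *Bmpr2* differed by 0.13 (adjusted p = 0.456).

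After the low gene *Wnt5b*, the largest difference among the 38 genes was in the activin arm. *Inhbb*, on chromosome 1 of GRCm38 from 119415465 to 119422248, encodes the βB subunit whose dimer is activin B. It had 41.7, 68.4 and 56.6 CPM in AdLacZ and 68.9, 91.8 and 73.8 CPM in Ad*Lmo3* replicates 1, 2 and 3. The highest AdLacZ library stood just under the lowest Ad*Lmo3* library, and without TMM the groups overlapped. The means were 55.6 ± 13.4 and 78.1 ± 12.1 CPM (SD, n = 3 each). On the log2 scale they differed by 0.49 (standard error 0.177, 95% interval 0.09 to 0.90, adjusted p = 0.165 by edgeR and 0.0373 by DESeq2). Without single libraries the log2 fold change ran from 0.32 to 0.67 and did not pass. The 9 adipocyte markers called in the same libraries also had all Ad*Lmo3* values above all AdLacZ values; their part in the *Inhbb* values was not tested.

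*Inhbb* made up nearly all of the activin subunit mRNA of the list. Per length it stood at 9.80 to 21.6 CPM per kb, and *Inhba*, which encodes the βA subunit, at 0.198 to 0.324. *Inhba* was thus 1.86 ± 0.198% of the 2 summed in AdLacZ and 1.49 ± 0.351% in Ad*Lmo3* (SD over 3 libraries each). Its own log2 fold change of 0.13 had a wide interval (-0.43 to 0.68). *Acvr2a*, the type II activin receptor, had 190, 182 and 189 CPM in AdLacZ and 180, 167 and 164 CPM in Ad*Lmo3* libraries. All Ad*Lmo3* values were lower, with and without TMM, by a log2 fold change of -0.14 (95% interval -0.29 to 0.01) that did not pass (adjusted p = 0.292). The type I receptor *Acvr1b* (ALK4) went from 37.1 ± 5.04 to 43.2 ± 6.42 CPM with overlapping groups (adjusted p = 0.403).

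**Figure D3:**
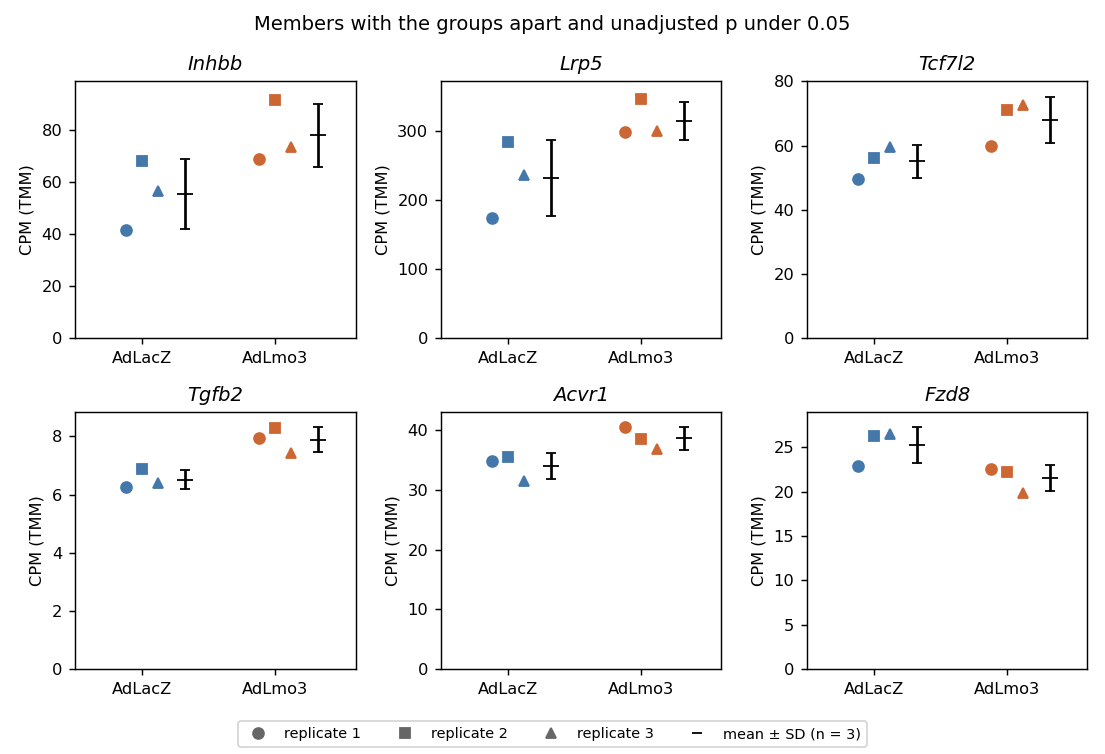
CPM in each library (points, 1 symbol per replicate number) with the mean and SD beside them, for the 6 genes whose groups did not overlap and whose unadjusted p was under 0.05. *Inhbb*, *Lrp5*, *Tcf7l2*, *Tgfb2* and *Acvr1* sit higher and *Fzd8* lower in Ad*Lmo3* libraries, and for 0 of them did the adjusted p from edgeR pass.

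The secreted inhibitors of activin and BMP overlapped between the viruses and spread widely within each group. *Fstl1* had 556, 524 and 421 CPM in AdLacZ and 645, 521 and 418 CPM in Ad*Lmo3* replicates 1, 2 and 3 (log2 fold change 0.08, 95% interval -0.30 to 0.45, adjusted p = 0.840). *Fst*, which encodes the activin-binding protein follistatin, had 56.1, 53.7 and 40.2 CPM against 64.0, 50.7 and 33.5 CPM (log2 fold change -0.01, 95% interval -0.52 to 0.49, adjusted p = 0.982). In both genes replicate 3 was the lowest library of each virus group. The summed preadipocyte and fibroblast markers were also lowest in replicate 3. They had 22300, 21200 and 17500 CPM in AdLacZ and 25700, 23100 and 16900 CPM in Ad*Lmo3* libraries. Most of that sum came from *Col3a1* (9610 to 14400 CPM) and *Col1a1* (4190 to 6620 CPM). Some single markers had another order: *Vim* was lowest in AdLacZ replicate 1 (1110 CPM) and *Gata3* highest in Ad*Lmo3* replicate 3 (6.40 CPM). Whether the cell makeup set any of these values was not tested. *Grem1*, a BMP antagonist, was near 1 CPM or lower in each library, at 0.450 to 1.25 CPM, and its log2 fold change of 0.08 had an interval from -0.78 to 0.94.

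**Figure D4:**
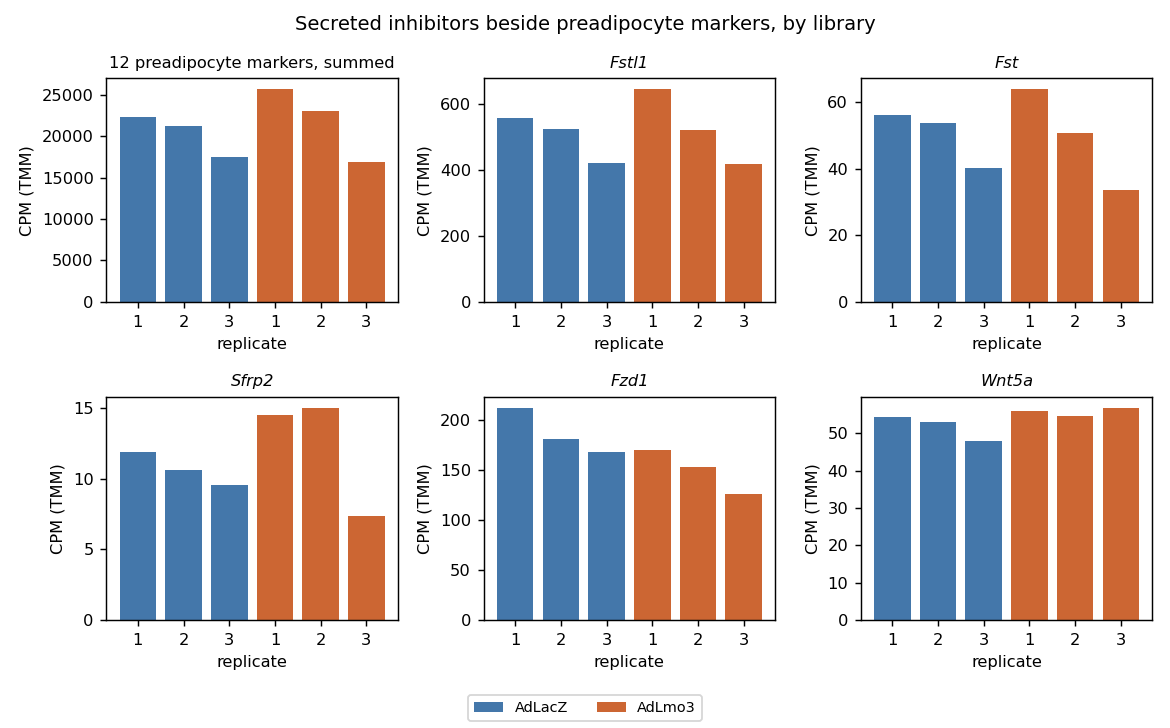
Summed CPM of 12 preadipocyte and fibroblast markers (first panel) and CPM of 5 genes in each library, as bars from 0, in blue for AdLacZ and orange for Ad*Lmo3*. *Fstl1*, *Fst*, *Sfrp2* and *Fzd1* are lowest in replicate 3 of each group like the marker sum. *Wnt5a* is lowest in replicate 3 of AdLacZ (48.0 CPM) and highest in replicate 3 of Ad*Lmo3* (56.8 CPM).

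The SMAD mRNAs overlapped between the viruses. Of the 7, 0 had groups that stood apart, and their log2 fold changes ran from -0.11 to 0.29 with a median of 0.01. *Smad4*, the common partner and the most abundant per length (19.1 to 22.6 CPM per kb), had 74.6, 84.1 and 78.0 CPM in AdLacZ and 77.8, 70.9 and 70.8 CPM in Ad*Lmo3* libraries (log2 fold change -0.11, 95% interval -0.27 to 0.05, adjusted p = 0.442). Without TMM its groups stood apart. Of the receptor-activated SMADs, *Smad2* (0.00, -0.17 to 0.17) and *Smad5* (0.01, -0.14 to 0.15) had the narrowest intervals of the log2 fold change. *Smad3* (0.13, adjusted p = 0.463) and *Smad1* (-0.10, adjusted p = 0.632) had overlapping groups.

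The inhibitory SMADs were among the lower ones. Per length *Smad6* stood at 2.87 to 4.99 and *Smad7* at 1.03 to 2.07 CPM per kb. *Smad6* went from 11.3 ± 2.42 CPM in AdLacZ to 13.8 ± 1.95 CPM in Ad*Lmo3* (SD, n = 3 each; log2 fold change 0.29, adjusted p = 0.381), and *Smad7* from 6.77 ± 2.37 to 7.61 ± 1.34 CPM (0.17, adjusted p = 0.761). Both differences were of the size of the spread between replicates, and the groups overlapped.

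Of the WNT ligands, *Wnt5a*, which signals largely outside the β-catenin pathway, accounted for 81.5 ± 3.57% of the summed level per length in AdLacZ and 84.6 ± 4.02% in Ad*Lmo3* libraries (SD, n = 3 each). It had 54.4, 52.9 and 48.0 CPM in AdLacZ and 55.8, 54.5 and 56.8 CPM in Ad*Lmo3* libraries. The groups stood apart by a narrow gap, which was not there without TMM, and the log2 fold change was 0.11 (95% interval -0.05 to 0.26, adjusted p = 0.418). *Wnt6*, a canonical ligand, had 2.53, 3.86 and 2.39 CPM against 3.32, 2.12 and 1.52 CPM (log2 fold change -0.33, 95% interval -1.04 to 0.39). *Wnt5b* had 6 to 21 counts per library, and its estimate of 0.52, the highest of the 38, carried an interval from -0.46 to 1.49. For both the groups overlapped.

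The WNT receptors moved in different directions. *Fzd1*, the most abundant Frizzled of the list, had 212, 181 and 168 CPM in AdLacZ and 170, 153 and 126 CPM in Ad*Lmo3* replicates 1, 2 and 3. The lowest AdLacZ library fell just within the Ad*Lmo3* range, although the groups stood apart without TMM. The log2 fold change of -0.32 (standard error 0.126, 95% interval -0.61 to -0.04) had an adjusted p of 0.191. *Fzd8* had 22.9, 26.3 and 26.5 CPM in AdLacZ and 22.6, 22.2 and 19.9 CPM in Ad*Lmo3* libraries. Its groups stood apart with and without TMM, and the estimate was -0.23 on the log2 scale, with a standard error of 0.0895 (adjusted p = 0.201). *Fzd4* (0.06, 95% interval -0.19 to 0.31) and *Fzd7* (0.09, -0.07 to 0.25) overlapped between the groups.

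*Lrp5*, on chromosome 19 of GRCm38 from 3584828 to 3686564, encodes a WNT co-receptor. It had 174, 284 and 237 CPM in AdLacZ and 298, 346 and 300.0 CPM in Ad*Lmo3* replicates 1, 2 and 3. AdLacZ replicate 2 came close to the Ad*Lmo3* values, and without TMM the groups overlapped. The means were 232 ± 55.3 and 315 ± 26.7 CPM (SD, n = 3 each). On the log2 scale they differed by 0.44 (standard error 0.162, 95% interval 0.07 to 0.81, adjusted p = 0.172 by edgeR and 0.0396 by DESeq2). Leaving out single libraries moved it between 0.27 and 0.61, and it did not pass. The related co-receptor *Lrp6* went from 230 ± 12.4 to 252 ± 23.5 CPM with overlapping groups (log2 fold change 0.13, adjusted p = 0.437). Per length *Fzd1* (30.0 to 50.6 CPM per kb) overlapped with *Lrp5* (17.8 to 35.5), and *Lrp5* with *Fzd4* (16.8 to 22.5) and *Lrp6* (15.8 to 20.4), while *Fzd7* (7.16 to 8.28) and *Fzd8* (3.34 to 4.44) were lower.

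Of the secreted WNT antagonists, *Sfrp2* was the one with enough reads to test. It had 11.9, 10.6 and 9.52 CPM in AdLacZ and 14.5, 15 and 7.37 CPM in Ad*Lmo3* replicates 1, 2 and 3. Ad*Lmo3* replicate 3 was the lowest of all 6 libraries and the other 2 Ad*Lmo3* libraries the highest, so that the log2 fold change of 0.21 had an interval from -0.35 to 0.77 (adjusted p = 0.684). In *Sfrp2*, 16.1% of the exon length is shared with a gene on the opposite strand.

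Inside the cell, the components of the destruction complex and the transcription factor differed in level. *Ctnnb1* had 452, 440 and 449 CPM in AdLacZ and 440, 400 and 398 CPM in Ad*Lmo3* libraries. The highest Ad*Lmo3* library reached the AdLacZ range, and the groups stood apart only without TMM, with a log2 fold change of -0.12 (95% interval -0.27 to 0.04, adjusted p = 0.401); 15.1% of its exon length overlaps other genes. *Axin1*, the scaffold of the complex, went from 80.3 ± 4.86 to 76.4 ± 5.67 CPM (adjusted p = 0.663). *Axin2*, a scaffold that is also a widely used target of canonical WNT signalling, had 22, 28 and 21 counts in AdLacZ and 22, 27 and 9 in Ad*Lmo3* libraries, a log2 fold change of -0.21 with an interval from -0.95 to 0.54. Its level per length, 0.0605 to 0.133 CPM per kb, was far below that of *Axin1* (18.6 to 22.4).

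*Tcf7l2*, on chromosome 19 of GRCm38 from 55741820 to 55933654, had the smallest adjusted p of the 38. It had 49.6, 56.1 and 59.6 CPM in AdLacZ and 59.8, 71.2 and 72.8 CPM in Ad*Lmo3* replicates 1, 2 and 3. The highest AdLacZ value was next to the lowest Ad*Lmo3* value, and without TMM the groups overlapped. The group means were 55.1 ± 5.10 and 68.0 ± 7.09 CPM (SD, n = 3 each). On the log2 scale the difference was 0.30 (standard error 0.0976, 95% interval 0.08 to 0.53), which did not pass (adjusted p = 0.130, edgeR). *Ctgf*, a matricellular gene induced by TGF-beta in fibroblasts, was low, with 24, 17 and 23 counts in AdLacZ and 12, 17 and 20 in Ad*Lmo3* libraries (log2 fold change -0.26, 95% interval -1.12 to 0.60). In *Ctgf*, 23.2% of the exon length is shared with a gene on the opposite strand, and reads there may have been assigned to neither gene.

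Groups that do not overlap are common in these libraries. They occurred in 8 of the 38 tested genes (21.1%), against 3381 of all tested genes (26.5%), so the share was not above the background. Of the 8, which were *Tgfb2*, *Acvr1*, *Inhbb*, *Acvr2a*, *Wnt5a*, *Fzd8*, *Lrp5* and *Tcf7l2*, 3 also stood apart without TMM (*Tgfb2*, *Acvr2a* and *Fzd8*), where 6 did in all. The share of all tested genes that stood apart without TMM was not counted. The counts of members without TMM therefore cannot be set against a background.

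A wider list of 119 other genes of these pathways, drawn up by role with earlier results of these data known, held 73 that were tested. Of these, 3 rose in Ad*Lmo3* libraries at an adjusted p under 0.05 (4.11%, against 2.71% of all tested genes that rose) and 0 fell (1.57% of all). The median log2 fold change of the 73 was 0.09. The 3 were *Pmepa1*, *Gdf5* and *Ltbp2*, all placed by the list on the TGF-beta superfamily side, and 0 of the tested WNT genes passed. DESeq2 called 12 (9 higher and 3 lower, or 16.4%, against its 8.69% of all tested genes), among them the WNT genes *Lgr4*, *Porcn* and *Wisp2*. The others were of the TGF-beta superfamily side: *Pmepa1*, *Gdf5*, *Ltbp1*, *Ltbp2*, *Gdf15*, *Bmper*, *Nog*, *Id1* and *Nedd4l*. Leaving out AdLacZ replicate 3 left 0 of the 3 edgeR calls (0.596% of all tested genes were called then). Leaving out Ad*Lmo3* replicate 2 left *Pmepa1* (1.37% of the 73, against 1.18% of all). Without AdLacZ replicate 1 *Ltbp2* was lost and the WNT target *Ccnd1* was called (3 in all, 4.11% against 2.2%). Without Ad*Lmo3* replicate 1 there were 8 (11%, against 3.89% of all tested genes), the WNT genes *Lgr4* and *Wisp2* among them. Beside these stood *Pmepa1*, *Gdf5*, *Ltbp2*, *Gdf15*, *Nog* and *Id1*. Over all genes the 547 calls became 284, 238 and 77 without AdLacZ replicates 1, 2 and 3, and 501, 152 and 289 without Ad*Lmo3* replicates 1, 2 and 3.

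*Pmepa1*, a membrane protein gene induced by TGF-beta that dampens SMAD activation, had 52.2, 64.9 and 61.7 CPM in AdLacZ and 89.7, 85.1 and 94.9 CPM in Ad*Lmo3* replicates 1, 2 and 3. All Ad*Lmo3* values were well above the AdLacZ values. The log2 fold change was 0.59 with a standard error of 0.0903 (adjusted p = 0.0130, edgeR). *Gdf5*, a BMP-family ligand best known from joints, rose from 15.5, 15.4 and 12.1 CPM to 22.4, 22.9 and 23.5 CPM (log2 fold change 0.68, standard error 0.108, adjusted p = 0.0150). In *Gdf5*, 40.3% of the exon length is shared with an antisense gene, and its reads carry that uncertainty.

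*Ltbp2*, a matrix protein gene of the latent TGF-beta binding protein family, rose from 72.1, 82.8 and 78.3 CPM to 103, 130 and 131 CPM (log2 fold change 0.64, standard error 0.105, adjusted p = 0.0170, edgeR), with 9.34% of its exon length shared with an antisense gene. The 12 tested genes that this wider list places among extracellular regulators of the superfamily all had log2 fold changes above 0. They ran from 0.07 to 0.64 (median 0.25), where 6437 of all 12766 tested genes were above 0. On library totals, however, *Bmp1* was at 0.00, with 11 of the 12 higher and 1 lower. Of the 12, 1 passed, *Ltbp2*. The largest estimate of the 73, named after its values were seen, was that of *Gdf15*, a stress-induced ligand of the superfamily. It had 3.99, 7.91 and 5.28 CPM in AdLacZ and 3.59, 1.68 and 1.22 CPM in Ad*Lmo3* libraries. All Ad*Lmo3* values were lower, and the log2 fold change of -1.38 (95% interval -2.29 to -0.47) did not pass by edgeR (adjusted p = 0.0977), though DESeq2 called it. Of the 11 known TGF-beta or BMP targets, 7 had estimates above 0 and 4 below, and *Pmepa1* passed. *Col1a1*, one of these targets, is also among the preadipocyte and fibroblast markers. In *Tagln*, another of them, 67.9% of the exon length is shared with antisense genes. Of the 4 tested WNT targets, 3 had estimates above 0 and 1 below, and 0 passed.

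**Figure D5:**
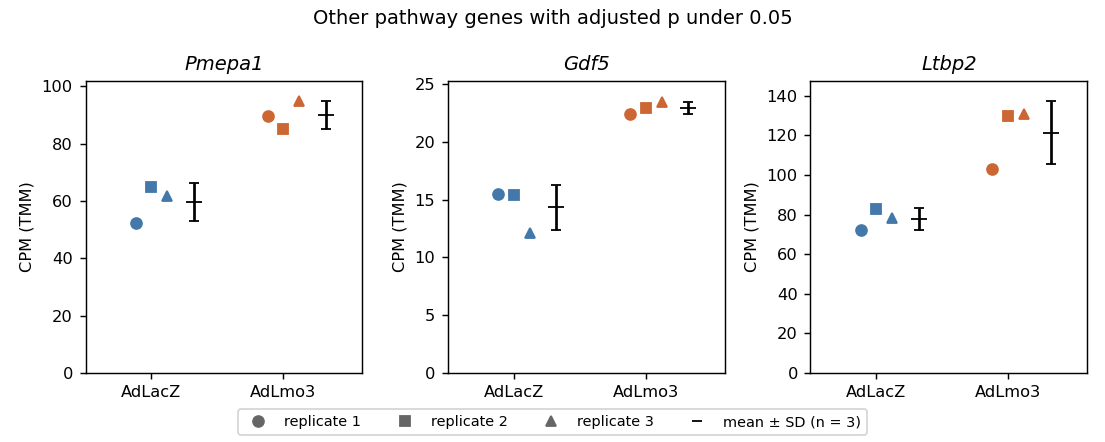
CPM in each library for the 3 genes of the wider list with an adjusted p under 0.05, with the mean and SD (n = 3) beside the points. In each of them the 3 Ad*Lmo3* libraries lie above the 3 AdLacZ libraries, with *Pmepa1* at 85.1 to 94.9 against 52.2 to 64.9 CPM.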

How the data were processed

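Total RNA of 6 libraries was sequenced as 75 bp single reads. The authors mapped the reads with STAR (2.5.0b in the submitters' processing notes) to mm10 and deposited raw counts of reads per gene symbol, 1 library per table; the counting program, strand setting and annotation are not given in the sources used here. Reads assigned to no gene (7.15% to 8.94%) or to several (0.476% to 0.543%) were left out, and no column went unused.

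The reported model was made with edgeR 4.0.16 under R 4.3.3, using filterByExpr, TMM and the quasi-likelihood test with group as its only term and Benjamini-Hochberg adjustment over all 12766 tested genes. Intervals of fold changes used the same test's standard error and t quantiles. Exon lengths, positions and overlaps came from GENCODE M21 (GRCm38, the same build as mm10). DESeq2 1.42.0, limma 3.58.1 (voom), other scaling and filters, the replicate block and leaving out each library were alternatives. Each tool was tested on simulated data with known changes. There, at an adjusted p under 0.05, false calls were 8.08% of 198 calls by edgeR, 16.1% of 218 by DESeq2 and 9.5% of 200 by voom. These are shares of all calls of a tool, in a simulation whose 198 detectable planted changes were larger than those of the members. The share among calls made by DESeq2 alone was not measured, and the shares in the real data may differ. Replicate libraries differed beyond sampling noise (chi-square per degree of freedom 22.9 to 61.6). An exact permutation test of 3 against 3 cannot go below 0.1, so single genes were tested in the model across all genes only.

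The members, the gene lists and the tests were chosen with earlier results of these data known. Values of each library were given for members with an adjusted p under 0.05, for those with groups apart and unadjusted p under 0.05, and for the most abundant member per length of each role; of the wider list, for the genes called. Values of some other members were added to complete their role, and those of *Gdf15* for its large difference. One further gene was left out of the wider list and its counts and is not reported here. Promoter sequences were to be shown for members called by edgeR in the reported model, and it called none.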

Additional observations from a re-analysis of the deposited data

How the results depend on the processing

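Of 490 recomputed fold changes of single members, 455 kept their direction and their side of the threshold, 31 changed sign and 4 passed the threshold. DESeq2 called 2 of the 38 members (*Inhbb* and *Lrp5*, 5.26%), 12 of the other pathway genes (16.4%) and 1110 genes in all (8.69%). Without a count filter 8 of 102 other pathway genes were called (7.84%, against 3.65% of all genes), in place of 3 of 73, and on library totals 5 of 73 were (6.85%, against 6.01%). Among all genes, the calls fell to 77 to 501 (0.596% to 3.89%) when single libraries were left out. The other pathway genes called ranged from 0 to 8 (0% to 11%), and the members called stayed at 0. With the replicate number as a block, 2 members were called (5.26%), *Inhbb* (adjusted p = 0.0296, edgeR) and *Tcf7l2* (adjusted p = 0.0453, edgeR). That fit called 5 other pathway genes (6.85%) and 498 genes in all (3.9%). After subtracting the mean of each group, libraries sharing a number had correlations of 0.03, 0.18 and 0.18 (12766 genes). Those with different numbers ranged from -0.26 to 0.15, and AdLacZ replicate 1 correlated best with Ad*Lmo3* replicate 3 (0.11). From 3 libraries per group these values cannot settle whether equal numbers mark pairs. The reported model used no block. On library totals, signs changed for *Fzd4* (-0.02), *Smad2* (-0.07), *Smad5* (-0.06), *Tgfbr2* (-0.04) and *Tgfbr3* (-0.07). *Smad2* was 0.00 with either sign by limma voom, with the block and with the stricter filter. Leave-one-out fits changed the sign of 12 members, all within 0.21 of 0 as reported: *Axin2* (-0.45 to 0.02), *Fst* (-0.24 to 0.20), *Fstl1* (-0.09 to 0.22), *Fzd4* (-0.05 to 0.13), *Grem1* (-0.23 to 0.45), *Inhba* (-0.01 to 0.37), *Smad2* (-0.06 to 0.06), *Smad5* (-0.02 to 0.04), *Smad7* (-0.04 to 0.47), *Tgfb1* (-0.11 to 0.03), *Tgfbr2* (-0.02 to 0.09) and *Tgfbr3* (-0.04 to 0.04). The cause of these shifts was not tested.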
